A study of Homo sapiens with 8 samples.

Results

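Among 594 mature miRNAs of human embryonic stem cells, 9 arms of 6 hairpins were examined: miR-324-5p, miR-324-3p, miR-744-5p, miR-744-3p, miR-1307-5p, miR-1307-3p, miR-1180-3p, miR-1301-3p and miR-887-3p. They were chosen because their 3p arm fell against wild type in both genotypes that carry Dicer S1344L, where most 3p arms did not, so their levels in those comparisons are a description and carry no test. The 9 comprise 6 of the 300 arms named 3p and 3 of the 227 named 5p; a further 67 entries name no arm. Both arms were in the table for 186 hairpins, miR-324, miR-744 and miR-1307 among them. No 5p row of miR-1180, miR-1301 or miR-887 was analysed here, so a loss of the whole hairpin can be read for only 3 of the 6.

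All cells were H1, an established pluripotent line, with 2 libraries of small RNA for each of 4 genotypes: wild type, homozygous for Dicer-S1344L, hemizygous for Dicer-S1344L, and Dicer-null. The S1344L cells were engineered with CRISPR-Cas9. The column headers code homozygous cells as pmpm, hemizygous cells as pmfs and null cells as fsfs. The other allele of the hemizygous cells thus carries the code of the null alleles, fs. What fs stands for and the number of clones behind each genotype are not stated in these sources. The samples are described as biologically independent RNA. For the level of an arm, p-values and standard errors rest on a spread pooled over all 8 libraries and over miRNAs of like level. They do not measure the spread of that arm in the libraries compared. The hemizygous pair, whose libraries differed widely, enters the pooled spread of every comparison.

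Dicer cuts a hairpin precursor into a duplex of a 5p and a 3p arm, and an Argonaute protein keeps mainly 1 of them. Its RNase IIIa domain cuts the strand that carries the 3p arm, and its RNase IIIb domain cuts the strand that carries the 5p arm. Ser1344 lies in the RNase IIIa domain, and its change to leucine recurs in tumours. An arm recognises its targets mainly through the seed, bases 2 to 8 from its 5′ end. Of the arms here, miR-324-5p is known as a repressor of Hedgehog signalling components and miR-744-5p as a repressor of TGFB1.

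The mature sequences are shown because the arms are grouped by a pattern of levels and not by a family. RefSeq (GRCh38.p14) holds 8 of the 9, written here 5′ to 3′ with the seed in capitals.
miR-324-5p: cGCAUCCCcuagggcauuggug
miR-324-3p: cCCACUGCcccaggugcugcugg
miR-744-5p: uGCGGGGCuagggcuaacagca
miR-744-3p: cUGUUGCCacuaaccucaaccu
miR-1307-5p: uCGACCGGaccucgaccggcu
miR-1307-3p: aCUCGGCGuggcgucggucgug
miR-1180-3p: uUUCCGGCucgcgugggugugu
miR-1301-3p: uUGCAGCUgccugggagugacuuc
No seed was shared between any pair of these 8 arms. Among the other miRNAs of the table with a RefSeq entry, miR-10396a-5p alone shared a seed with one of them, GCGGGGC of miR-744-5p. It stood at 3.89 and 18.0 RPM in wild type, and its log2 fold change was 0.71 in homozygous and 0.01 in hemizygous cells.

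The precursors of 3 of the hairpins show where the arms sit, with both arms in capitals and the flanks and loop in lower case. MIR324 and MIR744 have both arms in the table, and MIR1180 is the most GC-rich of the 6.
MIR324 (chr17:7223297-7223379, minus strand): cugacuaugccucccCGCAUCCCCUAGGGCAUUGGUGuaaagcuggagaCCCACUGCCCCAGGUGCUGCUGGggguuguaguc
MIR744 (chr17:12081899-12081996, plus strand): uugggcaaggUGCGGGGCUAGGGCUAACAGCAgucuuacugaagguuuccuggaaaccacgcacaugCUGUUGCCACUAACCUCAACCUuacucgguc
MIR1180 (chr17:19344506-19344574, minus strand): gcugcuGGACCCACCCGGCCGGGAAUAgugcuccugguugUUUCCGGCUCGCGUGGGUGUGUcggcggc

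Levels are RPM, that is reads relative to a denominator that came with each deposited library. Those denominators lay between 751353 and 1399485 and were not the totals of the miRNA reads. The 594 miRNAs held 2680973 and 2725756 reads in wild type, 2289926 and 1814568 in homozygous, 1000101 and 1833057 in hemizygous and 165317 and 137655 in null libraries. Hemizygous replicate 1 stood apart, with 0.729 miRNA reads for each read of its denominator against 2.42 in replicate 2. A single read was worth 0.715 to 1.33 RPM, and a count of 0 allows up to 2.14 to 3.99 RPM, which covers counting error only. The pluripotency-linked miR-302, miR-367 and miR-371 to miR-373 arms (8 of 8 listed) held 38.0% to 52.3% of the miRNA reads in every library and none was at 0. Of 16 miRNAs that mark differentiated cells 13 were in the table, with 1.67% to 2.13% of the reads, and those at 0 were miR-143-3p in both null libraries, miR-145-5p in null replicate 1 and miR-142-5p in null replicate 2.

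Against wild type, all 9 arms were lower in both S1344L genotypes, with no overlap between the groups, as were 43.3% (homozygous) and 44.1% (hemizygous) of all miRNAs. Homozygous cells kept 5.31% to 14.5% of the mean wild-type RPM for the 6 3p arms and 2.61% to 3.28% for the 3 5p arms. In hemizygous cells these ranges were 2.73% to 10.4% and 1.36% to 2.71%. Because the RNA came from many cells at once, fewer cells that carry an arm and less of it in each cell cannot be told apart.

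In miR-324, a hairpin with both arms well expressed in wild type, the 5p arm stood at 874 and 771 RPM in wild type, 27.5 and 26.4 in homozygous, 6.56 and 15.9 in hemizygous and 2.86 and 2.66 in null cells. The 3p arm stood at 723 and 655 RPM in wild type, 78.4 and 58.9 in homozygous, 18.2 and 43.6 in hemizygous and 0.715 and 6.65 in null cells. In RPM both arms followed the order wild type, homozygous, hemizygous, null, with no overlap between neighbouring groups. Over all miRNAs, homozygous lay below wild type without overlap in 43.3%, hemizygous below homozygous in 21.4% and hemizygous above null in 72.7%. As a share of the miRNA reads of a library, miR-324-5p was instead higher in null (0.00242% and 0.00145%) than in S1344L libraries (0.000655% to 0.00121%). The null shares of miR-324-3p (0.000605% and 0.00363%) spanned its S1344L shares. The null values rest on 4 and 2 reads of the 5p arm and 1 and 5 reads of the 3p arm. The log2 fold changes against wild type, on the log2(RPM + 1) scale, were -4.88 ± 1.02 (SE) for the 5p and -3.32 ± 1.02 for the 3p arm in homozygous cells, and -6.19 ± 1.02 and -4.56 ± 1.02 in hemizygous cells.

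In miR-744, a hairpin read mainly from its 5p arm, that arm stood at 2566 and 2123 RPM in wild type, 72.0 and 50.5 in homozygous, 29.1 and 97.8 in hemizygous and 36.4 and 67.9 in null libraries. The S1344L and null values of miR-744-5p overlapped. The 3p arm stood at 185 and 234 RPM in wild type, 30.7 and 30.1 in homozygous, 14.6 and 29.1 in hemizygous and 7.15 and 10.6 in null libraries. Neighbouring groups did not overlap in RPM. Over all 3p arms, homozygous lay below wild type without overlap in 20.7%, hemizygous below homozygous in 27.7% and hemizygous above null in 95.7%. As a share of the miRNA reads of a library, miR-744-3p was instead higher in null (0.00605% and 0.00581%) than in S1344L libraries (0.00120% to 0.00200%). The 3p arm was the member with the smallest change, by -2.73 ± 1.02 (log2 ± SE) in homozygous and -3.27 ± 1.02 in hemizygous cells. Its 5p partner changed by -5.25 ± 0.98 and -5.42 ± 0.98.

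In miR-1307, the most abundant of the 6 hairpins, the 5p arm stood at 4746 and 6128.5 RPM in wild type, 189 and 159 in homozygous, 44.5 and 225 in hemizygous and 19.3 and 58.6 in null libraries. The hemizygous pair spanned both homozygous values and reached into the range of the null pair. The 3p arm stood at 1302 and 1436.5 RPM in wild type, 173 and 154 in homozygous, 24.0 and 129.5 in hemizygous and 2.86 and 16.0 in null libraries. Here the 4 groups did not overlap in RPM, although the hemizygous libraries differed widely (shares over all 3p arms as given for miR-744-3p). As a share of the miRNA reads of a library, the null values of miR-1307-3p (0.00242% and 0.00872%) spanned its S1344L values. The log2 fold changes against wild type were -4.95 ± 0.96 for the 5p and -3.06 ± 1.00 for the 3p arm in homozygous cells, and -5.74 ± 0.96 and -4.58 ± 1.00 in hemizygous cells.

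The other members were single 3p arms. miR-1180-3p stood at 644 and 852 RPM in wild type, 43.4 and 36.1 in homozygous, 7.29 and 37.0 in hemizygous and 0.715 and 3.99 in null libraries. It had the largest change of the 6 3p arms in homozygous cells, -4.19 ± 1.02, and changed by -5.39 ± 1.02 in hemizygous cells, where one library fell within the homozygous range. miR-1301-3p stood at 379 and 309.7 RPM in wild type, 26.5 and 19.2 in homozygous, 2.91 and 15.9 in hemizygous and 1.43 and 3.99 in null libraries. Its hemizygous replicate 1 (4 reads) lay within the range of the null libraries (2 and 3 reads), and its log2 fold changes were -3.87 ± 1.00 and -5.40 ± 1.00. miR-887-3p stood at 809.85 and 816 RPM in wild type, 99.6 and 73.3 in homozygous, 15.3 and 37.0 in hemizygous and 5.72 and 16.0 in null libraries. Its hemizygous and null values also overlapped, and its log2 fold changes against wild type were -3.23 ± 1.01 and -5.03 ± 1.01.

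**Figure D1:**
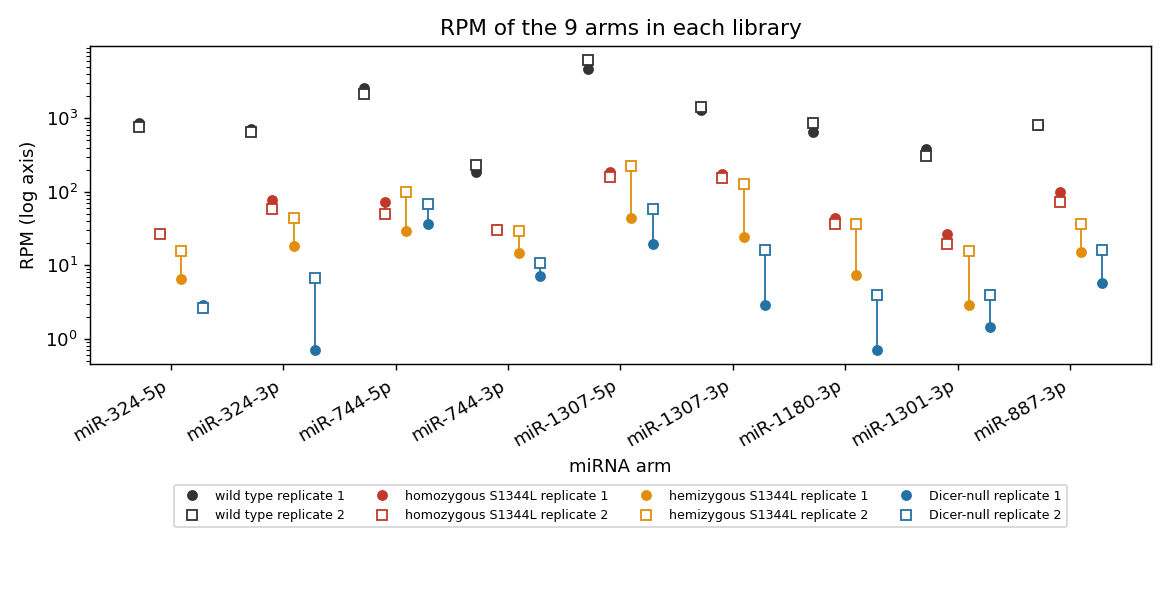
RPM (log axis) of each of the 9 arms in each of the 8 libraries, with filled circles for replicate 1, open squares for replicate 2, a line joining the pair and a colour for each genotype. Every wild-type point lies above every S1344L and null point of its arm, and hemizygous replicate 1 lies below replicate 2 for all 9.

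All 9 arms were called lower in homozygous cells by limma (Benjamini-Hochberg adjusted p under 0.05 over the 594 miRNAs), where 22.1% of all miRNAs, 4% of the 3p arms and 48.9% of the 5p arms were. In hemizygous cells the 9 were again called lower, beside 30.5% of all miRNAs, 9.67% of the 3p arms and 60.4% of the 5p arms. The rule used these comparisons, so nothing is read from those counts. The median log2 fold change of the 6 3p members was -3.28 in homozygous cells against 0.68 over all 3p arms, and -4.81 in hemizygous cells against -0.18. The 3 5p members had medians of -4.95 and -5.74 (all 5p arms, -2.26 and -2.93). In the homozygous comparison the calls of the 6 3p members needed all 4 libraries compared. With wild-type replicate 1 left out 1 was called, with wild-type replicate 2 left out 2, with homozygous replicate 1 left out 2 and with homozygous replicate 2 left out 0, while the median stayed between -3.49 and -3.07.

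Of the 300 3p arms, 12 (4%) were called lower in both S1344L genotypes, the 6 members and 6 others. The others were miR-222-3p, miR-766-3p, miR-301b-3p, miR-1227-3p, miR-4707-3p and miR-328-3p. By the mean of the log2 fold changes in homozygous and hemizygous cells, the members ranked 1 (miR-1180-3p), 2 (miR-1301-3p), 4 (miR-887-3p), 5 (miR-324-3p), 6 (miR-1307-3p) and 12 (miR-744-3p) of 300. Rank 3 was miR-222-3p, a far more abundant arm at 9700 and 10415 RPM in wild type, with changes of -4.25 and -4.81. Lowest in rank inside the limit was miR-744-3p, with changes of -2.73 and -3.27. Just outside it, miR-338-3p, miR-103a-3p and miR-9983-3p had means of -2.82, -2.63 and -2.40 and were called lower in hemizygous cells only.

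The 3 member hairpins with both arms lost more of the 5p than of the 3p arm. Of the 97 two-arm hairpins whose 5p arm was called lower in homozygous cells, the 3p arm was called lower in 4 (miR-324, miR-744, miR-1307 and miR-222), higher in 19 and neither in 74. For the 116 such hairpins in hemizygous cells the counts were 8, 7 and 101, and the 8 again included miR-324, miR-744 and miR-1307. The rule used these comparisons, so the place of the 3 member hairpins in both counts follows from the choice.

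**Figure D2:**
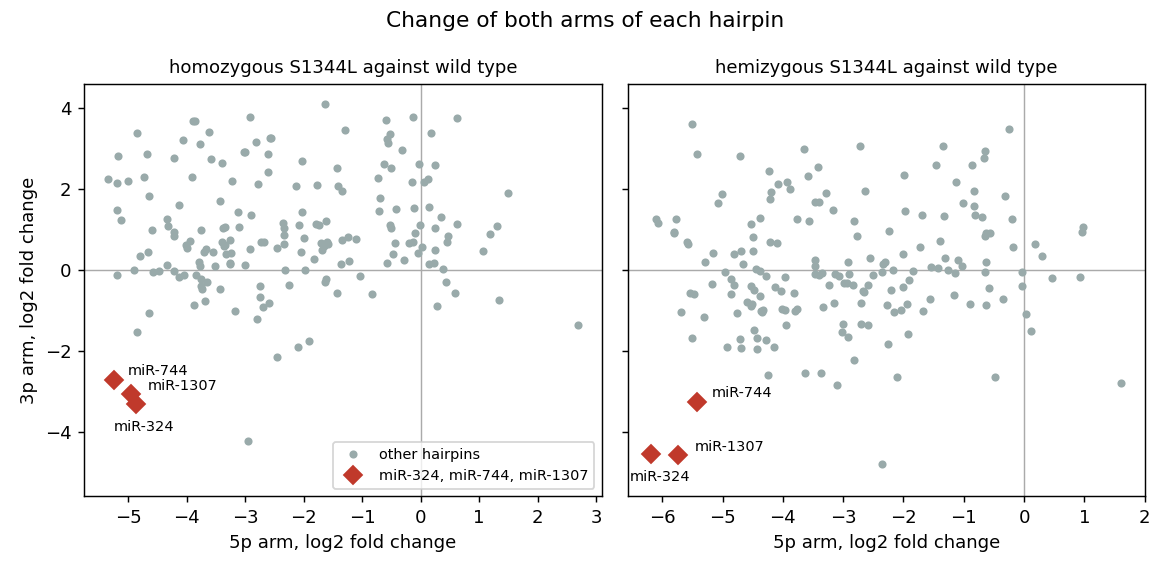
Change of the 5p arm (x axis) and of the 3p arm (y axis) against wild type, both as log2 fold change, for 186 hairpins in homozygous (left) and hemizygous (right) cells. The 3 member hairpins, red diamonds, lie at the lower left, with the 5p arm at -4.88 to -5.25 and the 3p arm at -2.73 to -3.32 in homozygous cells.

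The reads that remained were shifted toward the 3p arm, a measure in which the scaling of a library cancels. For miR-324 the 3p arm made up 45.2% and 46.0% of the reads of the hairpin in wild type, 74.0% and 69.0% in homozygous and 73.5% and 73.3% in hemizygous libraries. For miR-744 these shares were 6.71% and 9.91% in wild type, 29.9% and 37.3% in homozygous, and 33.3% and 22.9% in hemizygous libraries. For miR-1307 they were 21.5% and 18.99%, 47.8% and 49.2%, and 35.1% and 36.6%. All S1344L shares of the 3 hairpins lay above the wild-type shares, but below the median of the 186 hairpins, which was 83.1% in both homozygous and 80.6% and 80.0% in hemizygous libraries. The depth behind the S1344L shares was 34 to 341 reads a hairpin, and the 95% Wilson interval of miR-324 in hemizygous replicate 1 (25 of 34 reads) ran from 56.9% to 85.4%.

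As log2 ratios of 3p over 5p, the shift in homozygous cells was 1.56 ± 0.58 (SE) for miR-324, 2.52 ± 0.53 for miR-744 and 1.89 ± 0.46 for miR-1307, beside a median of 3.31 over 186 hairpins. In hemizygous cells it was 1.63, 2.15 and 1.15, beside a median of 2.89. Limma called the ratio toward 3p in 79% of the 186 hairpins in homozygous and 76.9% in hemizygous cells, all 3 member hairpins included; the rule used these libraries, and this is a description.

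**Figure D3:**
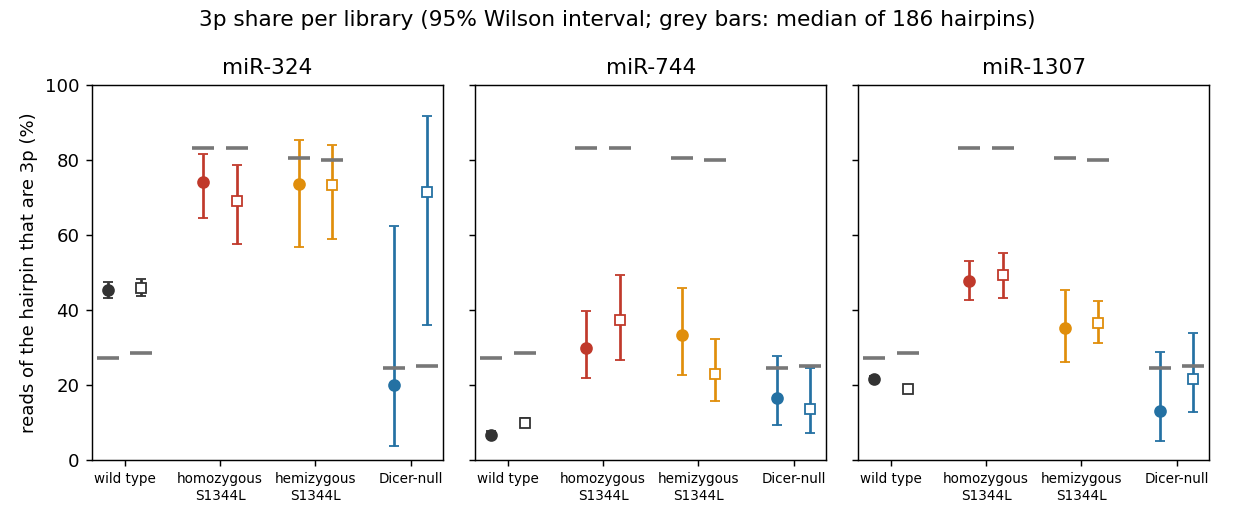
Share of the reads of a hairpin that came from its 3p arm, in percent, for miR-324, miR-744 and miR-1307 in each library, with 95% Wilson intervals that cover counting error only (filled circles, replicate 1; open squares, replicate 2; grey bars, the median of 186 hairpins). The S1344L points lie above the wild-type points in each hairpin, and the null points of miR-324, from 5 and 7 reads, have the widest intervals.

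The comparison of null with wild-type cells was not used to choose the arms, though it shares the wild-type libraries with the rule. All 9 arms fell in null cells (limma, Benjamini-Hochberg adjusted p between 9.22e-13 and 2.42e-05), as did 87.4% of all miRNAs and 91% of the 3p arms. The log2 fold changes ran from -7.99 ± 1.02 for miR-1180-3p, the lowest of the 594, to -4.42 ± 1.02 for miR-744-3p. The null values of miR-1180-3p rest on 1 and 3 reads, near the pseudocount of 1 RPM. The median of the 9 fold changes was -7.28 (all miRNAs, -4.60). A miRNA that is low in wild type cannot fall as far on this scale, so rank and median depend in part on wild-type levels. Both null libraries lay below both wild-type libraries for all 9, as for 90.2% of all miRNAs. The 2 arms of miR-744 stood apart, with -5.52 ± 0.98 for the 5p arm and 4.26% of the wild-type mean left for the 3p arm. The other 7 arms kept 0.315% to 1.33%. On each library's own miRNA reads, a scaling that takes out the lower miRNA content of the null libraries, the fall of miR-744-3p was -0.66 (adjusted p = 0.216) and the other 8 arms were called lower, beside 48.7% of all miRNAs. miR-744-3p did not pass under median-ratio, upper-quartile or quantile scaling either, and with upper-quartile scaling its change was 0.42, in the opposite direction. miR-744-5p did not pass with upper-quartile (-0.55, adjusted p = 0.179) or quantile scaling (-0.61, adjusted p = 0.156).

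In null cells the 3p share was 20.0% and 71.4% for miR-324 (5 and 7 reads), 16.4% and 13.6% for miR-744 and 12.9% and 21.4% for miR-1307. None of the 3 ratios passed the test against wild type, where 37.6% of the 186 hairpins changed. The largest difference was that of miR-744, 1.10 ± 0.53 (limma adjusted p = 0.106). With a pseudocount of 5 the ratio of miR-744 was called (1.46, limma adjusted p = 0.0109), beside 62.9% of all hairpins. The ratio of miR-324 moved most with single libraries, to 1.32 without null replicate 1 and to -0.92 without null replicate 2.

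Hemizygous and homozygous cells were compared to ask whether the arms differ between the S1344L genotypes. No arm passed the test: limma called 0 of 9 members and 0% of the 594 miRNAs, and at an unadjusted p under 0.05 there were 0 members and 7 of 594. All 9 differences were negative, with a median of -1.24 beside -0.86 over all miRNAs, and ranged from -1.80 ± 1.01 for miR-887-3p to -0.17 ± 0.98 for miR-744-5p. The 95% interval of the difference was -3.78 to 0.19 for miR-887-3p and -2.10 to 1.76 for miR-744-5p, so both intervals span differences of several-fold. Both hemizygous libraries lay below both homozygous ones for 6 of the 9 arms, beside 21.4% of all miRNAs. Of these arms 5 were 3p, and the share over all 3p arms was 27.7%. Both groups are S1344L libraries on which the arms were chosen, so these counts are a description. The difference between hemizygous and homozygous cells moved with hemizygous replicate 1. Without that library the medians were -0.33 for the members and 0.13 for all miRNAs, with 0 calls. Without hemizygous replicate 2, 6 members and 70% of all miRNAs were called. On own miRNA reads the differences of miR-744-5p (0.60) and miR-744-3p (0.22) were positive and that of miR-1307-5p was 0.00, while the other 6 arms stayed negative. The 3p over 5p ratio also gave no call, for 0 of 3 member hairpins and 0% of 186, with 5 of 186 at an unadjusted p under 0.05. The differences were 0.07 ± 0.58 for miR-324, -0.37 ± 0.53 for miR-744 and -0.74 ± 0.46 for miR-1307.

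Against null cells, the direction for what was left of the arms in S1344L cells depended on the scaling. The rule chose arms that are low in these same S1344L libraries, so a smaller excess over null cells than that of other 3p arms is built into the choice and nothing is read from it. In RPM, 7 of the 9 arms were called higher in homozygous than in null cells by limma, with 0 lower, beside 76.3% of all miRNAs. Of the 3p members 5 of 6 were called, while 96.3% of all 3p arms were. The largest difference was that of miR-1307-3p, 4.34 ± 1.00 (adjusted p = 2.87e-05). miR-744-5p at 0.27 ± 0.98 (adjusted p = 0.81) and miR-744-3p at 1.69 ± 1.02 (adjusted p = 0.115) did not pass. In a limma fit of only the 4 libraries compared, miR-744-3p did pass (1.69 ± 0.49, adjusted p = 0.015). That fit called 8 of the 9 arms higher, beside 86% of all miRNAs called. On own miRNA reads the split turned to 0 higher and 3 lower, the 3 being miR-744-5p (-3.64), miR-744-3p (-2.09) and miR-1307-5p (-1.59), while 39.2% of all miRNAs were called higher and 29.5% lower. Median-ratio, upper-quartile and quantile scaling gave the same split of 0 and 3. In RPM the count was 3 if homozygous replicate 1 was left out (64.5% of all miRNAs called), 4 if homozygous replicate 2 was (67.7%) and 4 if null replicate 1 was (68.2%).

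In hemizygous against null cells, 3 of 9 arms were called higher in RPM and 0 lower (all miRNAs, 64.6% higher). The 3 were miR-324-3p (3.02 ± 1.02, limma adjusted p = 0.00571), miR-1307-3p (2.82 ± 1.00, adjusted p = 0.00848) and miR-1180-3p (2.60 ± 1.02, adjusted p = 0.0176). They make up 3 of the 6 3p members, while 91% of all 3p arms were called higher. On own miRNA reads 0 were higher and 6 lower, among them miR-744-5p (-3.04) and miR-887-3p (-1.80), beside 35.7% of all miRNAs higher and 30.5% lower. The split was 0 higher and 5 lower with median-ratio and upper-quartile scaling and 0 and 6 with quantile normalization. In RPM, 8 arms were called without hemizygous replicate 1 (87% of all miRNAs), 1 without hemizygous replicate 2 (59.1%) and 0 without null replicate 1 (52%). Both comparisons share the null libraries and use S1344L libraries on which the arms were chosen.

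The ratio of 3p over 5p was also set against null cells, a comparison added after the values were seen. The rule chose on the 3p arm in these same S1344L libraries, and that arm enters the ratio. The calls and p-values are therefore a description, and nothing is read from the size of the shift beside other hairpins. In homozygous cells it lay toward 3p in 3 of 3 member hairpins by limma, as in 79.6% of 186. The differences were 2.02 ± 0.46 for miR-1307 (adjusted p = 0.00145), 1.42 ± 0.53 for miR-744 (adjusted p = 0.025) and 1.35 ± 0.58 for miR-324 (adjusted p = 0.0468). In hemizygous cells 2 of 3 passed, miR-1307 at 1.28 ± 0.46 and miR-324 at 1.43 ± 0.58, beside 78.5% of all hairpins, while miR-744 stood at 1.05 ± 0.53 (adjusted p = 0.0825). Only the homozygous difference of miR-1307 passed under every setting run. The ratios were not run under median-ratio, upper-quartile or quantile scaling. The calls of miR-324, whose null values rest on 5 and 7 reads, were lost in both comparisons on own miRNA reads (adjusted p = 0.115 and 0.0987), with a pseudocount of 0.5, with no variance trend and without most single libraries. Without null replicate 1 its differences were 0.24 and 0.31. The homozygous call of miR-744 was lost without either homozygous library (1.65 and 1.18) or null replicate 2 (1.23). The hemizygous call of miR-1307 was lost with a pseudocount of 5 (0.84), in a fit of only those 4 libraries, without either homozygous library, without hemizygous replicate 2 (1.24) and without null replicate 1 (0.99). The hemizygous difference of miR-744 passed without hemizygous replicate 2 (1.43).

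As a share of all miRNA reads, the 6 3p members together held 0.194% and 0.185% in wild type, 0.0186% and 0.0170% in homozygous, 0.0113% and 0.0121% in hemizygous and 0.0157% and 0.0312% in null libraries. The null range thus overlapped that of the homozygous cells and lay above that of the hemizygous. The 3 5p members held 0.392% and 0.387% in wild type, 0.0119% and 0.0108% in homozygous, 0.0110% and 0.0140% in hemizygous and 0.0496% and 0.0705% in null libraries. For the 5p arms both null shares exceeded all 4 S1344L shares. The 5p sum in null cells rested on 82 and 97 reads, of which miR-744-5p gave 51 in each library.

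**Figure D4:**
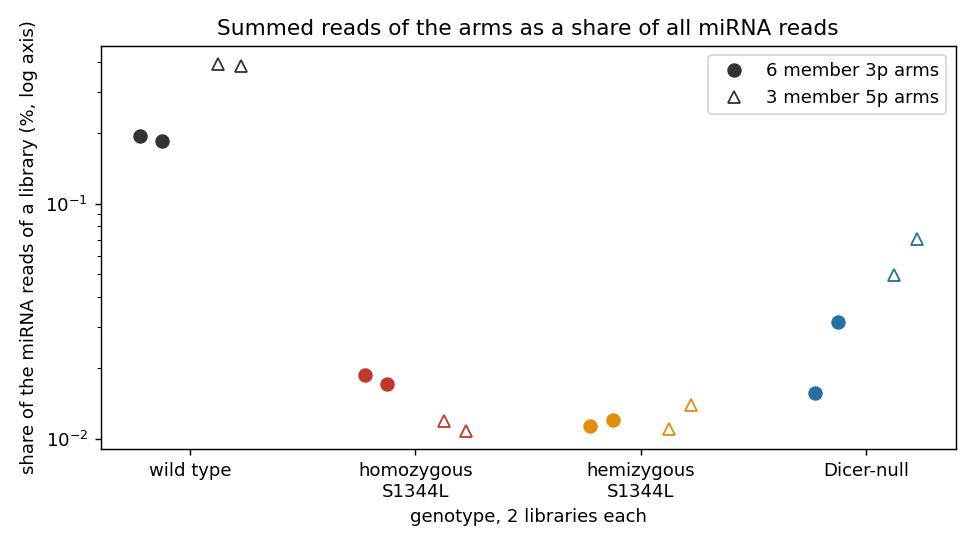
Share of all miRNA reads, in percent on a log axis, held by the 6 3p members (filled circles) and by the 3 5p members (open triangles) in each library. The 5p sum is at 0.0108% to 0.0140% in the S1344L libraries and at 0.0496% and 0.0705% in the null, while the 3p sum in the null (0.0157% and 0.0312%) overlaps the homozygous range.

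The 6 hairpins lie on 4 chromosomes (RefSeq GRCh38.p14, and the same coordinates in the GENCODE annotation of hg38). MIR324 lies on chromosome 17 opposite an intron of ACADVL, a mitochondrial enzyme of fatty acid oxidation. On the same chromosome MIR744 lies in an intron of MAP2K4, a kinase of the stress-activated pathway, and MIR1180 in an intron of B9D1, a protein of the ciliary transition zone. MIR1307 (chr10:103394253-103394401, minus strand) overlaps an exon and UTR of ATP5MD, a subunit of the mitochondrial ATP synthase. MIR1301 (chr2:25328640-25328721, minus strand) lies in an intron of DNMT3A, a DNA methyltransferase, and MIR887 (chr5:15935182-15935260, plus strand) in an intron of FBXL7, an F-box protein. All but MIR324 are on the strand of the overlapping gene.

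In base composition, all 5 3p members with a sequence were above the median GC content of the 3p arms (47.8%, n = 269). They were miR-324-3p (73.9%), miR-1307-3p (72.7%), miR-1180-3p (63.6%), miR-1301-3p (58.3%) and miR-744-3p (50%). As many or more GC were found in 2.97% of 3p arms for miR-324-3p and in 46.8% for miR-744-3p. miR-1307-3p holds 5 CpG dinucleotides, a number reached by 0.743% of 3p arms, and miR-1180-3p holds 3, while miR-324-3p, miR-744-3p and miR-1301-3p hold 0. Over the other 264 3p arms with a sequence, the Pearson r of GC content with the log2 fold change was -0.064 in homozygous and -0.0076 in hemizygous cells; these points share the same libraries. Of those with 60% GC or more, 3 of 42 were called lower in homozygous and 5 of 42 in hemizygous cells. In the bins under 40%, from 40% to under 50% and from 50% to under 60% GC, the homozygous counts were 1 of 61, 0 of 82 and 1 of 79, and the hemizygous counts 4, 4 and 5. The part of GC content in the loss of the members was not tested. The hairpins had no loop length in common, where the median over 250 hairpins was 16 bases. Between the arms of MIR744 lie 35 bases, a distance reached by 1.6% of hairpins, and between those of MIR1307 lie 18 (25.6%). MIR324 (12 bases), MIR1180 (13) and MIR1301 (14) were shorter, with 96.8%, 93.2% and 83.6% of hairpins at or above them. MIR887 had no value.

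The 5 other miRNAs whose pattern was most like the mean profile of the 6 3p members, by Pearson r over the 8 libraries on log2(RPM + 1), were miR-4707-3p (0.996), miR-519e-5p (0.995), miR-766-3p (0.993), miR-188-5p (0.992) and miR-515-5p (0.991). The median over all other miRNAs was 0.757. Of the 5, 3 are 5p arms, and miR-519e-5p stood at 3119 and 3932 RPM in wild type, 465 and 397 in homozygous, 125 and 339.7 in hemizygous and 21.4 and 62.6 in null libraries. On own miRNA reads the 5 were miR-519e-5p, miR-874-3p, miR-326, miR-194-5p and miR-766-3p, so miR-519e-5p and miR-766-3p appeared under both scalings.

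Arms of hairpins numbered like miR-1180, miR-1301 and miR-1307, in 4 digits beginning with 1, were set beside the members. Of 15 such 3p arms outside the members, 1 was called lower in homozygous cells (miR-1227-3p, -3.21) and 1 higher (miR-1277-3p, 3.24). Over all 3p arms 4% were called lower and 18.7% higher. The median of the 15 was 1.10 (all 3p arms, 0.68). In hemizygous cells 2 of the 15 were called lower and 0 higher, beside 9.67% and 8% of all 3p arms. Their median there was 0.18 (all 3p arms, -0.18). Among 8 noncanonical miRNAs, which skip a step of the usual pathway, 2 were called lower in homozygous cells (miR-484, -4.23, and miR-1227-3p) and 1 higher (miR-320a-5p, 2.69), with a median of -1.46 (all miRNAs, -0.05, with 22.1% called lower). In hemizygous cells 5 of the 8 were called lower and 0 higher (all miRNAs, 30.5% lower).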

How the data were processed

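Small RNA libraries of H1 cells were size-selected, ligated to linkers, amplified by PCR and sequenced, per the labels' protocols. The submitters' processing notes name cutadapt, limma and hg38; the aligner, miRNA annotation and scaling method are not stated there. Per the file headers each library has 1 column. The deposited values are log2 RPM to which 0.5 of a read had been added, as read from their steps; the analysis had been planned for RPM or log2 values. The largest distance of a recovered read number from a whole read was 7.45e-09.

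RPM were recomputed from those reads. Changes were fitted with limma 3.58.1 (R 4.3.3) on log2(RPM + 1), as 1 model of 4 group means over 8 libraries with a variance trend, two-sided. Calls use p-values adjusted by Benjamini-Hochberg over the 594 miRNAs, with a threshold of 0.05. A minimum of 5 RPM in 2 or more libraries was met by all 594, the 9 members included. Because the prior degrees of freedom were infinite, arms of like level have the same standard error, given beside each fold change. Ratios of 3p over 5p were fitted with the same model over 186 hairpins, with prior degrees of freedom of 8.64. Their variance trend runs on the mean ratio of a hairpin, so it does not take read depth into account. Shares carry 95% Wilson intervals, a count of 0 allows 3 reads, and hairpins were folded with RNAfold 2.7.2.

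The members, lists and tests were chosen with earlier results of these data known. Named miRNAs are the members, the other 3p arms called lower in both S1344L genotypes, the nearest 3 outside, the 5 most alike, those sharing a seed, and up to 3 of each list. Alternatives were a pseudocount of 0.5 or 5, no filter or one of 50 RPM, 4 other scalings, fits of only the libraries compared, no trend, blocking on the replicate number, and omission of each library in turn. Of the other scalings, only own miRNA reads was run for the ratios. A self-test on simulated data was run.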

Additional observations from a re-analysis of the deposited data

How the results depend on the processing

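The number of 3p members called lower in null against wild type was 5 to 6 throughout, and 6 without any single library.

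Both the scaling and the choice of libraries moved the results. The median of the 6 3p members against wild type was -2.85 (median-ratio), -2.36 (upper-quartile) and -2.26 (quantile) in homozygous cells, and -4.07 (own miRNA reads), -3.49, -2.98 and -3.08 in hemizygous cells, with all 6 called lower in each. Without 1 library these medians ran from -3.49 to -3.07 and from -5.71 to -4.12, with 0 to 6 and 5 to 6 of the 6 called lower. Members called between homozygous and null cells numbered 7 in RPM and 3 under each of the other 4 scalings, all lower, and 3 to 8 without 1 library. Between hemizygous and null cells they numbered 3 in RPM, 6 on own miRNA reads, 5 with median-ratio, 5 with upper-quartile and 6 with quantile scaling, all lower, 0 in a fit of only those 4 libraries, and 0 to 8 without 1 library. Between hemizygous and homozygous cells they numbered 0 to 6 without 1 library. Null against wild type, 1 of 3 ratios of 3p over 5p was called with a pseudocount of 5, and 0 to 1 without 1 library.

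Direction turned as follows, as log2 fold changes. On own miRNA reads, homozygous against null gave miR-324-5p (-0.64), miR-744-5p (-3.64), miR-744-3p (-2.09), miR-1307-5p (-1.59), miR-1301-3p (-0.68) and miR-887-3p (-0.79). Hemizygous against null gave miR-324-5p (-1.19), miR-744-5p (-3.04), miR-744-3p (-1.87), miR-1307-5p (-1.59), miR-1307-3p (-0.13), miR-1301-3p (-1.49) and miR-887-3p (-1.80). Hemizygous against homozygous gave miR-744-5p (0.60), miR-744-3p (0.22) and miR-1307-5p (0.0007), and the miR-324 ratio in null cells was -0.032. With median-ratio scaling, homozygous against null gave miR-324-5p (-0.77), miR-744-5p (-3.78), miR-744-3p (-2.22), miR-1307-5p (-1.73), miR-1301-3p (-0.81) and miR-887-3p (-0.93). Hemizygous against null gave -1.22, -3.07, -1.90 and -1.62 for the same first 4, miR-1307-3p (-0.16), miR-1301-3p (-1.53) and miR-887-3p (-1.83). Hemizygous against homozygous gave miR-744-5p (0.71), miR-744-3p (0.32) and miR-1307-5p (0.11). With upper-quartile scaling, homozygous against null gave miR-324-5p (-0.77), miR-744-5p (-3.78), miR-744-3p (-2.22), miR-1307-5p (-1.72), miR-1301-3p (-0.81) and miR-887-3p (-0.92). Hemizygous against null gave -1.20, -3.05, -1.88 and -1.59 for the same first 4, miR-1307-3p (-0.13), miR-1301-3p (-1.52) and miR-887-3p (-1.81). Hemizygous against homozygous gave miR-744-5p (0.73), miR-744-3p (0.35) and miR-1307-5p (0.13), and null against wild type gave miR-744-3p (0.42). With quantile normalization, homozygous against null gave miR-324-5p (-0.53), miR-744-5p (-3.58), miR-744-3p (-1.85), miR-1307-5p (-1.41), miR-1301-3p (-0.66) and miR-887-3p (-0.40). Hemizygous against null gave -1.29, -2.95, -1.54 and -1.42 for the same first 4, miR-1301-3p (-1.55) and miR-887-3p (-1.54). Hemizygous against homozygous gave miR-744-5p (0.64) and miR-744-3p (0.31). With a pseudocount of 5 the miR-324 ratio, hemizygous against homozygous, was -0.077, and the miR-1307 ratio in null cells was 0.36.

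Without 1 library, miR-744-5p against null ran from -0.17 upward in homozygous cells (lowest without null replicate 1) and from -0.75 (without hemizygous replicate 2) to 0.96 in hemizygous cells, with -0.34 without null replicate 1. Hemizygous against homozygous, miR-744-5p ran from -1.02 to 0.69 (without hemizygous replicate 1; 0.08 without homozygous replicate 1), miR-1307-5p from -1.94 to 0.38, the miR-324 ratio from -0.10 to 0.25 and the miR-744 ratio up to 0.013 (without hemizygous replicate 2). Null against wild type, the miR-324 ratio ran from -0.92 (without null replicate 2) to 1.32 and the miR-1307 ratio from -0.42 to 0.17. A lone library was assumed to vary like the other groups. The cause was not tested.

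The main model did not pair libraries by replicate number. Deviations of same-numbered libraries correlated at 0.61 for wild type with hemizygous cells and at -0.10 to 0.097 for the other pairs of genotypes. With a replicate block the counts stayed at 6, 0, 7 and 3 called members in null against wild type (3p), hemizygous against homozygous, homozygous against null and hemizygous against null, the ratios at 0 calls, and the medians at -3.28 and -4.81. Depth limits the null values most, with 1 to 51 reads an arm.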
